A study of Mus musculus with 8 samples.

Results

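The Ndrg (N-myc downstream regulated) family comprises 4 mouse genes, Ndrg1, Ndrg2, Ndrg3 and Ndrg4, and was examined in CD8 single-positive (CD8SP) thymocytes in which Ndrg3 had been targeted. The 4 members were taken by gene symbol from the 47937 genes of the count table, and all 4 passed the filter on low counts, which left 14633 genes to be tested. RNA was sequenced from sorted CD8SP TCRb+ thymocytes with high surface MHC-I, mature cells that have not yet left the thymus. There were 4 Ndrg3 ctrl and 4 Ndrg3 TKO libraries of 1 mouse each. Ndrg3 ctrl mice were Ndrg3 +/fl;Lck-cre+ and carried 1 floxed allele, whereas Ndrg3 TKO mice were Ndrg3 fl/fl;Lck-cre+ and carried 2. Both groups were 6 to 7 weeks old and both expressed Cre recombinase from the proximal Lck promoter, which is active in developing T cells, so the comparison is between cells with 1 unfloxed Ndrg3 allele and cells with none. The floxed allele comes from a single targeted embryonic stem cell clone, and a group without Cre was not analysed here. The question addressed is whether the other 3 family members differ when Ndrg3 is targeted, and how the family RNA is then divided among them.

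Ndrg proteins share an alpha/beta hydrolase fold but lack the residues needed for catalysis. Ndrg1 is induced by hypoxia and cell stress, is repressed by N-myc, is phosphorylated by SGK kinases downstream of mTORC2, and is known in T cells as an anergy factor. Ndrg2 is best known from astrocytes and as a partner of the PP2A phosphatase, Ndrg3 binds lactate, is degraded when oxygen is plentiful and can activate RAF-ERK signalling, and Ndrg4 is mainly a gene of heart and brain.

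The 4 genes lie on 4 different chromosomes. In GRCm38 coordinates with the GENCODE M21 annotation, Ndrg1 (ENSMUSG00000005125) is at chr15:66929318-66969640 on the minus strand, Ndrg2 (ENSMUSG00000004558) at chr14:51905271-51914158 on the minus strand, Ndrg3 (ENSMUSG00000027634) at chr2:156927345-156992056 on the minus strand and Ndrg4 (ENSMUSG00000036564) at chr8:95676980-95715119 on the plus strand. The exon flanked by loxP sites in the floxed Ndrg3 allele was matched to the annotation by its length of 106 bases. It is exon 4 of the transcript Ndrg3-201, at chr2:156950034-156950139, wholly coding and present in 3 of 3 coding transcripts of the gene. Its length leaves a remainder of 1 when divided by 3. Each paralogue has a coding exon 4 of the same length in its own transcript 201, and in all 4 genes this exon opens a run of 7 exons of identical lengths, 106, 121, 63, 61, 87, 57 and 104 bases, that together hold 599 bases.

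**Figure D1:**
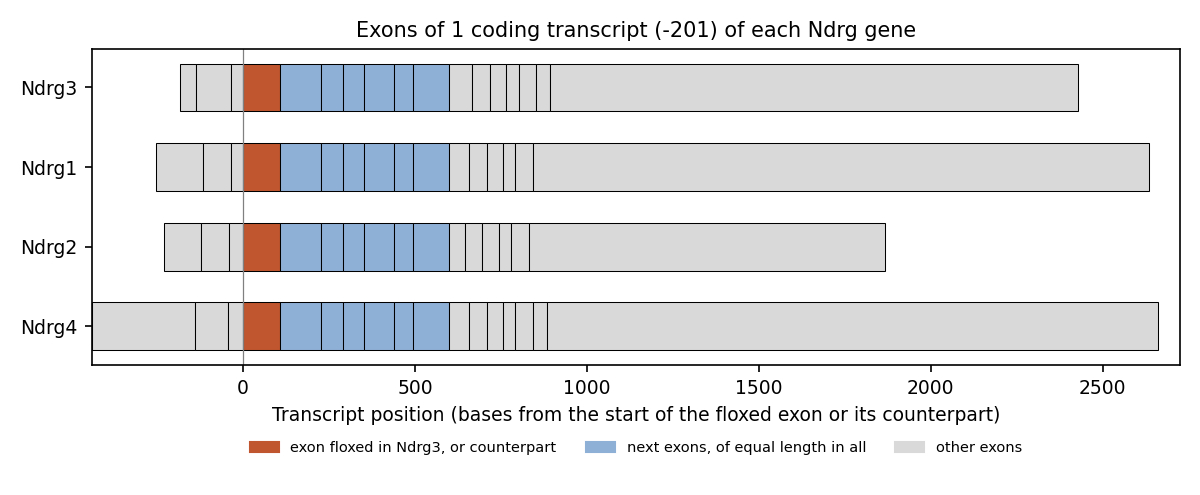
Exon lengths of 1 annotated coding transcript of each Ndrg gene (horizontal axis, transcript position in bases from the start of exon 4; 1 row per gene). The orange box is the 106-base exon that is floxed in Ndrg3, or its counterpart, and the blue boxes are the rest of the run of 7 exons whose lengths are the same in the 4 genes, while the first and last exons differ in length.

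The exon 4 sequences are shown because reads from such related exons could in principle be counted for the wrong member. They are written 5′ to 3′ on the coding strand, from the GENCODE M21 transcripts. For Ndrg1, Ndrg2 and Ndrg4, capitals mark the bases that differ from Ndrg3 at the same position, and for Ndrg3 they mark the 19 bases found in none of the other three.
Ndrg3: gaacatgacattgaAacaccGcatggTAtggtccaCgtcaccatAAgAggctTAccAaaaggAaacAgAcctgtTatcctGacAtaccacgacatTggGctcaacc
Ndrg1: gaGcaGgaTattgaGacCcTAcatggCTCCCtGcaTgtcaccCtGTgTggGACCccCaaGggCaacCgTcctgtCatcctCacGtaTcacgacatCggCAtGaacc
Ndrg2: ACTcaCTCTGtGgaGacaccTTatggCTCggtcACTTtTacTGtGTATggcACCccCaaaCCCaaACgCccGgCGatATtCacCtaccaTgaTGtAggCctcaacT
Ndrg4: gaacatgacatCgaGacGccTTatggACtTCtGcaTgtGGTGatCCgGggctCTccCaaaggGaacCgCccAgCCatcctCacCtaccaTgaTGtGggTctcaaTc
The counterpart exons lie at chr15:66948379-66948484 in Ndrg1, chr14:51910680-51910785 in Ndrg2 and chr8:95706188-95706293 in Ndrg4. Ndrg1 and Ndrg4 were each identical to Ndrg3 at 71 of 106 positions (67.0%), and Ndrg2 at 57 (53.8%). The longest stretch identical to Ndrg3 was 8 bases in Ndrg1, 6 in Ndrg2 and 11 in Ndrg4. Over the whole coding sequence, identity between members ranged from 64.5% for Ndrg2 and Ndrg3 to 69.8% for Ndrg1 and Ndrg4, with 66.3% for Ndrg1 and Ndrg3. No stretch of 50 bases was shared between the annotated transcripts of any 2 members, and at 30 bases 4 stretches were shared, all between Ndrg2 and Ndrg4. Ndrg1 and Ndrg3 shared 0 stretches of either length.

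The libraries held 21126698 to 32668081 counts, and 3 counts, the limit that a count of 0 allows, corresponded to 0.0918 to 0.142 CPM (counts scaled to the same total in each library), for counting error only. All 12 markers of CD8SP thymocytes were tested, among them Cd8a, Runx3 and Ccr7. With edgeR 0 passed the threshold and 2 had an unadjusted p under 0.05 (against 10.9% of all tested genes), as with DESeq2 (0, and 2). In edgeR these 2 were Ccr7 (log2 difference −0.26, adjusted p = 0.135) and S1pr1 (−0.19, adjusted p = 0.203), both lower in TKO. The other markers ranged from −0.05 to 0.11. The summed level of the 12 was 9134 to 10620 CPM in Ndrg3 ctrl and 9361 to 10226 CPM in Ndrg3 TKO. In 3 libraries Y-linked genes were counted, at 340 CPM in ctrl 2, 379 in TKO 2 and 416 in TKO 3, whereas the other 5 had at most 0.0752 CPM. The labels name no sex, and member values are also given below without these 3 libraries. Because cells were measured in bulk, fewer expressing cells and less RNA per cell cannot be told apart.

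Ndrg1 and Ndrg3 fell in Ndrg3 TKO thymocytes and no member rose. That is 2 of 4 members past the threshold (adjusted p under 0.05 in the edgeR quasi-likelihood fit, Benjamini-Hochberg over all tested genes), both lower, where 1.15% of all tested genes passed it in either direction, 0.355% as lower and 0.793% as higher. Ndrg3 was the targeted gene, which leaves 1 of the 3 untargeted members past the threshold. Ndrg1 and Ndrg3 were also the members whose groups did not overlap, as was the case for 7.04% of all tested genes in either direction, 3.59% with Ndrg3 TKO lower and 3.44% with it higher.

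Ndrg3, the targeted gene, had normalized counts (raw counts scaled to a common library size) of 2294, 2359, 2349 and 2342 in Ndrg3 ctrl 1 to 4. The 4 TKO libraries had 1460.0, 1402, 1537 and 1601. Every TKO library was below every ctrl library, in the direction the labels give. The mean went from 2336 ± 28.9 (SD, n = 4) to 1500.1 ± 87.2 (n = 4), a log2 fold change of −0.64 (SE 0.0526, 95% interval −0.75 to −0.53, adjusted p = 1.04e-05). Ndrg3 RNA in TKO was thus 64.2% of ctrl (95% interval 59.4 to 69.4%), and among the genes lower in TKO it ranked 1 by p-value and, of the 52 called lower, 15 by the size of the fall. Reads were counted over all exons, and the floxed exon makes up 1.26% of the merged exon bases of the gene and 4.06% of the transcript Ndrg3-201, so most countable bases lie outside it. The 4 ctrl libraries lay close together, with a coefficient of variation of 1.24% against 5.81% in TKO. Over the 5 libraries without Y-linked counts the log2 fold change was −0.60 (SE 0.0708, adjusted p = 3.58e-04).

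Ndrg1 encodes the hypoxia- and stress-induced member. Its normalized counts were 2207, 2497, 2070.2 and 2196 in Ndrg3 ctrl 1 to 4, and 1479, 1780.1, 1590.1 and 1542 in Ndrg3 TKO 1 to 4. The groups did not overlap, with the lowest ctrl library (ctrl 3) above the highest TKO library (TKO 2). The mean fell from 2243 ± 181 to 1598 ± 130 (SD, n = 4 each), a log2 fold change of −0.49 (SE 0.0692, 95% interval −0.64 to −0.34, adjusted p = 0.00209). Ndrg1 was therefore at 71.3% of ctrl (95% interval 64.4 to 79.0%), and it ranked 5 by p-value among the genes lower in TKO and, of the 52 called lower, 29 by the size of the fall. In each group the highest Ndrg1 library was one with Y-linked counts, namely ctrl 2 and TKO 2. Without Y-linked counts Ndrg1 ranged from 2070.2 to 2207 in 3 ctrl libraries and from 1479 to 1542 in 2 TKO libraries, and the log2 fold change over these 5 libraries was −0.51 (SE 0.0705, adjusted p = 0.00163). With the presence of Y-linked counts as a term in the fit of all 8 libraries it was −0.53 (SE 0.0528, adjusted p = 3.58e-05).

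Ndrg2, the PP2A-associated member, showed no difference past the test. Its normalized counts were 484, 528, 480.1 and 499 in ctrl 1 to 4 and 482, 502, 504 and 514 in TKO 1 to 4. All 4 TKO libraries lay inside the ctrl range, with ctrl 2 the highest of the 8 libraries and ctrl 3 the lowest. The means were 498 ± 21.5 and 500.1 ± 13.4 (SD, n = 4 each), a log2 fold change of 0.0088 (SE 0.0718, adjusted p = 0.981). The 95% interval was −0.14 to 0.16, or 90.4 to 112% of ctrl, so a change larger than this lies outside the interval. A smaller change in either direction lies inside it and cannot be told from none here. Over the 5 libraries without Y-linked counts it was 0.03 (SE 0.101, adjusted p = 0.965).

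Ndrg4, the heart and brain member, was close to the lower limit of what these libraries measure. It was represented by 22, 13, 9 and 13 raw counts in ctrl 1 to 4 and 13, 14, 15 and 5 in TKO 1 to 4, all above 3 counts. Normalized, these are 21.3, 18.5, 8.82 and 13.8 in ctrl and 12.5, 12.7, 14.5 and 4.44 in TKO, with ctrl 3 and ctrl 4 inside the TKO range. The log2 fold change of −0.49 had an SE of 0.391 and a 95% interval of −1.33 to 0.34 (adjusted p = 0.698), or 39.8 to 127% of ctrl. Over the 5 libraries without Y-linked counts it was −0.80 (SE 0.551, adjusted p = 0.723). Its point estimate was the same as that of Ndrg1, but at these counts the interval includes 0. Coefficients of variation were 35.3% in ctrl and 40.7% in TKO for Ndrg4, against 8.06% and 8.12% for Ndrg1 and 4.32% and 2.69% for Ndrg2.

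**Figure D2:**
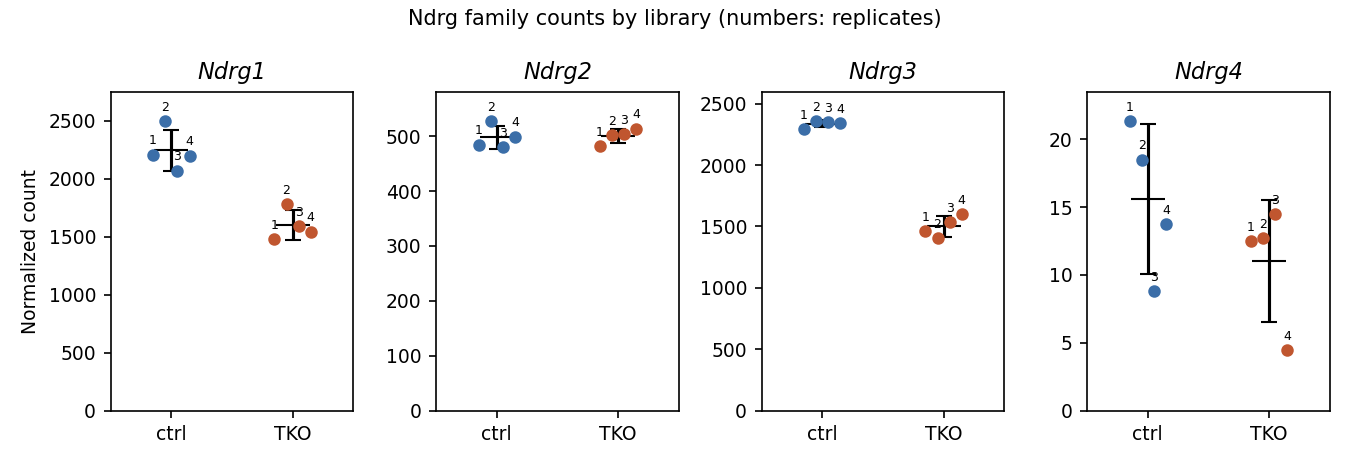
Normalized counts of Ndrg1, Ndrg2, Ndrg3 and Ndrg4 (vertical axes from 0, 1 scale per gene) in the 4 Ndrg3 ctrl (blue) and 4 Ndrg3 TKO (orange) libraries; small numbers are replicate numbers and black bars are the mean ± SD. For Ndrg1 all TKO points (1479 to 1780.1) lie under all ctrl points (2070.2 to 2497), and likewise for Ndrg3 (1402 to 1601 under 2294 to 2359), whereas the points of Ndrg2 and Ndrg4 overlap.

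Levels were compared between members per length, as RPKM, the CPM per kilobase of merged exon. In Ndrg3 ctrl the order was Ndrg1 at 11.7 ± 0.947 RPKM, Ndrg3 at 9.62 ± 0.119, Ndrg2 at 5.06 ± 0.219 and Ndrg4 at 0.110 ± 0.0388 (SD, n = 4). Among the 14633 tested genes these levels stood at the percentiles 68.5 for Ndrg1, 62.9 for Ndrg3, 45.1 for Ndrg2 and 1.96 for Ndrg4. Ndrg3 ctrl thymocytes, which carried 1 floxed Ndrg3 allele, therefore held 3 members at middling levels and 1 near the bottom of the tested range. Levels in cells without a floxed allele were not measured. In Ndrg3 TKO the order was unchanged, with 8.37 ± 0.680 RPKM for Ndrg1, 6.18 ± 0.359 for Ndrg3, 5.09 ± 0.137 for Ndrg2 and 0.0779 ± 0.0317 for Ndrg4.

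Ndrg1 was above Ndrg3 in all 8 libraries on this scale, from 10.8 to 13.1 RPKM against 9.45 to 9.72 in ctrl and from 7.75 to 9.32 against 5.78 to 6.6 in TKO. That order rests on the length used, since the merged exons span 6596 bases in Ndrg1 and 8388 in Ndrg3 but the coding sequences are of 1182 and 1164 bases. Per coding length the log2 ratio of Ndrg1 to Ndrg3 was −0.08 in ctrl and 0.07 in TKO, in both groups within the SD of 0.11 and 0.18, so the 2 genes cannot be ranked. Ndrg3 exceeded Ndrg2 by 1.90-fold in ctrl RPKM and by 1.21-fold in TKO, with no overlap between the 2 genes in either group (the highest Ndrg2 library in TKO was at 5.22 RPKM), and per coding length by 4.49-fold and 2.87-fold, so the size of this gap also rests on the length used. Ndrg2 exceeded Ndrg4 by 45.9-fold in ctrl.

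**Figure D3:**
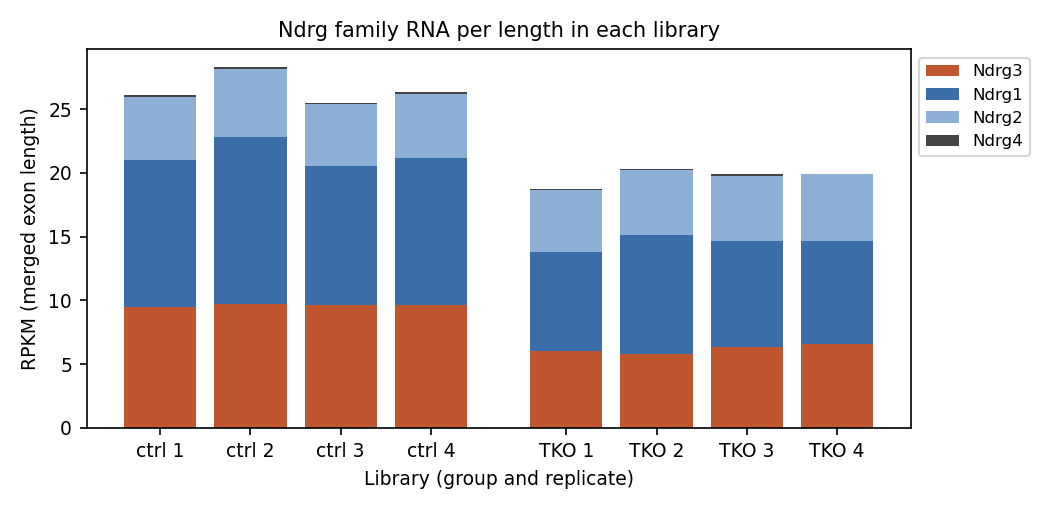
Family RNA per length in each library, as stacked RPKM of Ndrg3 (orange), Ndrg1 (dark blue), Ndrg2 (light blue) and Ndrg4 (grey, barely visible at 0.0314 to 0.151 RPKM). The stacks reach 25.5 to 28.3 RPKM in the 4 ctrl libraries and 18.7 to 20.3 in the 4 TKO libraries; the orange and dark blue parts are shorter in TKO and the light blue part is of similar height.

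Summed over the family, RNA per length was 26.1, 28.3, 25.5 and 26.3 RPKM in ctrl 1 to 4 and 18.7, 20.3, 19.9 and 19.9 RPKM in TKO 1 to 4. All TKO sums were lower, with means of 26.5 ± 1.22 and 19.7 ± 0.669 RPKM (SD, n = 4 each), so that TKO held 74.3% of the ctrl sum. The family sum includes the targeted gene, so its test is not independent of the fall of Ndrg3. The exact permutation test over all 70 group assignments gave p = 0.0286 (two-sided), the smallest it can give with 4 against 4, and 0.05 after adjustment over the 7 family values, which is at the threshold and not under it. The sum of the untargeted members Ndrg1, Ndrg2 and Ndrg4 was 16.6, 18.6, 15.8 and 16.7 RPKM in ctrl and 12.7, 14.5, 13.6 and 13.3 in TKO. This sum too was lower in every TKO library, at 80.0% of ctrl on average (exact permutation p = 0.0286, adjusted p = 0.05).

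The RNA of the other members did not offset the loss of Ndrg3 RNA in these libraries. The mean difference (TKO minus ctrl) was −3.44 RPKM for Ndrg3 and −3.38 RPKM for the other 3 together, so their sum was lower and not higher. Of the difference in the family sum per merged exon length, Ndrg3 made up 50.4% and Ndrg1 49.5%. Per coding length the family sum differed by −43.7 RPKM and the other 3 together by −18.9. The split thus rests on the length used. Per merged exon length, Ndrg2 would gain 0.604 RPKM at the upper end of its 95% interval, or 17.5% of the Ndrg3 RNA lost. Ndrg4 would gain 0.0297 RPKM, or 0.863%, while the interval of Ndrg1 holds decreases only. Both percentages also rest on the length used. The gains and losses are amounts of RNA, and protein was not measured in these libraries. By Western blot of total thymocytes, the authors reported efficient depletion of Ndrg3 protein in mice of the TKO genotype. Ndrg3 was counted over all exons, so RNA lacking the floxed exon would be included. Ctrl mice also carried 1 floxed allele. The loss of Ndrg3 RNA that holds this exon was not measured, so these percentages describe counted RNA only.

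The Ndrg2 share of family RNA was larger in every TKO library, with an adjusted p at the threshold and not under it. Ndrg2 made up 18.9, 19.0, 19.2 and 19.3% of family RPKM in ctrl 1 to 4 and 26.1, 25.1, 25.8 and 26.2% in TKO 1 to 4. These ranges are far apart compared with their spread (19.1% ± 0.178 and 25.8% ± 0.487, SD, n = 4 each, exact permutation p = 0.0286, adjusted p = 0.05). Per coding length the Ndrg2 share was 10.2% in ctrl and 14.5% in TKO, and with no length correction 9.77% and 13.9%, so its size rests on the length but its direction was the same. The level of Ndrg2 itself was 5.06 RPKM in ctrl and 5.09 in TKO. Its larger share thus goes with the lower levels of Ndrg1 and Ndrg3. Tests of the Ndrg2 and Ndrg3 shares are not independent of the fall of the targeted gene. The Ndrg3 share was 36.2, 34.3, 38.0 and 36.7% in ctrl and 32.1, 28.5, 31.8 and 33.1% in TKO, lower in every TKO library (36.3% ± 1.51 against 31.4% ± 2.01, exact permutation p = 0.0286, adjusted p = 0.05). Ndrg1 had the largest share in every library per merged exon length, whereas per coding length Ndrg3 had the larger mean share in ctrl (46.0% against 43.4%). The Ndrg1 share was 44.2% ± 1.53 in ctrl and 42.4% ± 2.42 in TKO, a difference within the spread (exact permutation p = 0.257, adjusted p = 0.3). Ndrg4 held 0.413% ± 0.141 and 0.396% ± 0.162 (exact permutation p = 0.886).

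Whether Ndrg1 and Ndrg3 RNA differed in the size of the fall was tested on their ratio within each library. The log2 ratio of Ndrg1 to Ndrg3 RPKM was 0.29, 0.43, 0.16 and 0.25 in ctrl 1 to 4 and 0.37, 0.69, 0.40 and 0.29 in TKO 1 to 4. The groups overlapped, and the mean went from 0.28 ± 0.11 to 0.44 ± 0.18 (SD, n = 4 each). The difference of 0.15 did not pass the exact permutation test (p = 0.2, adjusted p = 0.28) and was 0.0668 without TKO 2, the library with the highest ratio, and the interval of shifts that the same test does not reject at 0.05 ran from −0.14 to 0.53. A fall of Ndrg1 equal to that of Ndrg3, and one smaller by up to 0.53 on the log2 scale, are both inside that interval.

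Genes next to the members on the chromosome were examined to see whether a difference extended to them. Of the 24 neighbours, the 3 nearest tested genes on each side of each member, 0 passed the threshold with edgeR and 0 with DESeq2, and 1 (4.17%, against 10.9% of all tested genes) had an unadjusted p under 0.05 with either tool. Beside Ndrg3, the kinetochore gene Dsn1 starts 3.2 kb away and had a log2 difference of 0.03 (SE 0.110, adjusted p = 0.958). On its other side, 40.2 kb away, Sla2, which encodes an adaptor that dampens T cell receptor signalling, had −0.0035 (SE 0.0480, adjusted p = 0.989). Gm27653, counted as a neighbour by its start, lies inside Ndrg3 and had 0.19 (SE 0.368). The other 5 neighbours of Ndrg3, within 69.4 kb, ranged from −0.0035 to 0.05 where Ndrg3 itself was at −0.64.

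The neighbours of Ndrg1 ranged from −0.13 to 0.54. The nearest, the thyroglobulin gene Tg at 78.6 kb, had 0.54 (SE 0.468, adjusted p = 0.731) at means of 8.58 normalized counts in ctrl and 12.2 in TKO, and −0.0392 without TKO 4. Sla, a related adaptor of T cell receptor signalling 97.5 kb from Ndrg1, was the 1 of 24 neighbours (4.17%, against 7.04% of all tested genes) whose groups did not overlap, at 5191 to 5462 normalized counts in ctrl and 4626 to 5125 in TKO. Its log2 fold change of −0.13 (SE 0.0493) did not pass the test (adjusted p = 0.352). On the other side St3gal1, a sialyltransferase gene 133.2 kb away, had −0.04 (SE 0.0484, adjusted p = 0.814). Beside Ndrg2, Slc39a2 had 0.22 (SE 0.148, adjusted p = 0.638) and Arhgef40 0.34 (SE 0.302, adjusted p = 0.737). Beside Ndrg4, Setd6 at 0.8 kb had −0.15 (SE 0.127, adjusted p = 0.715) and Gins3 0.0035 (SE 0.0991, adjusted p = 0.994).

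**Figure D4:**
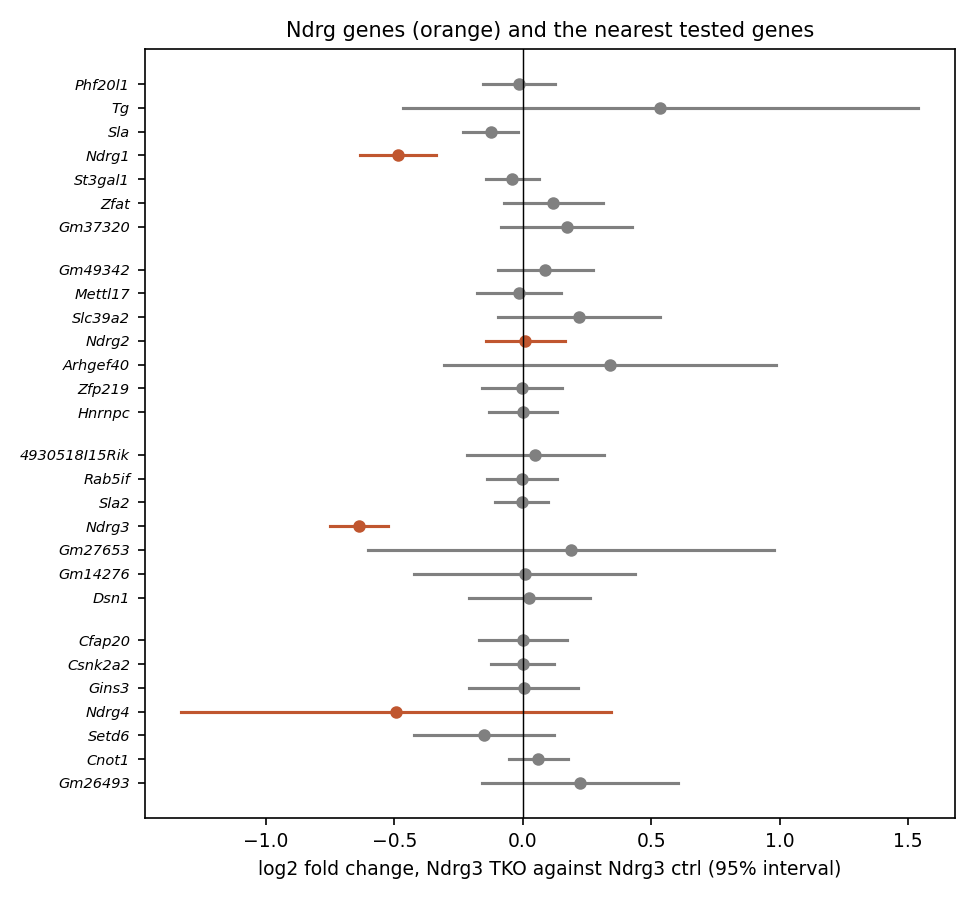
Log2 fold change in Ndrg3 TKO against Ndrg3 ctrl (horizontal axis; points, with 95% intervals as lines) of the 4 Ndrg genes (orange) and the 3 nearest tested genes on each side (grey), in chromosomal order within each block. The intervals of Ndrg1 (−0.64 to −0.34) and Ndrg3 (−0.75 to −0.53) lie wholly left of 0 and left of those of Sla, St3gal1, Sla2 and Dsn1. The wide intervals of Tg (−0.47 to 1.54) and Gm27653 (−0.60 to 0.98) overlap those of Ndrg1 and Ndrg3, respectively. Ndrg2 and Ndrg4 have intervals that include 0.

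Genes that share bases with a member were few and scarcely counted. Gm17035 and Gm2895, on the strand opposite to Ndrg1 and with exons that overlap its own, had at most 2 and 11 counts in any library, against 1542 to 2274 for Ndrg1. The small RNA gene Gm27653 lies inside Ndrg3 without touching its exons and had at most 42 counts. The strand setting of the counting is not given in the sources used here.

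Genes that act on Ndrg proteins or on their genes were followed in 6 lists of 97 distinct genes, of which 89 were tested. One gene, Egr1, passed the threshold, and it was lower. That is 1.12% of the tested list genes, next to 1.15% over all tested genes, so the share called was near the background. At an unadjusted p under 0.05, 14 of the 89 passed with edgeR (15.7%, against 10.9% of all tested genes) and 14 with DESeq2 (against 10.2% of all tested genes), and DESeq2 called 2, Egr1 and Braf. Their median log2 fold change was −0.01, next to −0.0033 over all tested genes. The groups did not overlap for 9 of the 89 (10.1%, against 7.04% of all tested genes).

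Egr1 encodes an immediate-early transcription factor induced by T cell receptor signalling and known to act on the NDRG1 promoter in other cells. Its normalized counts were 6196, 6854, 5780.4 and 5230.0 in ctrl 1 to 4 and 4921, 4475, 4687 and 3816 in TKO 1 to 4. The groups did not overlap, and the mean fell from 6015 ± 685 to 4475 ± 475 (SD, n = 4 each), a log2 fold change of −0.43 (SE 0.0889, edgeR adjusted p = 0.0422). This call was lost in 6 of the 8 fits that left out 1 library (without ctrl 1, ctrl 2, ctrl 3, TKO 2, TKO 3 or TKO 4), where the log2 fold change was −0.45 to −0.36 and the adjusted p 0.0683 to 0.134. It was also lost over the 5 libraries without Y-linked counts (−0.39, adjusted p = 0.192). The call was kept with other scalings and filters (edgeR adjusted p 0.0347 to 0.0475). It was also kept with replicate number as a term (2.89e-05), with the presence of Y-linked counts as a term (0.0136), and with DESeq2 (8.97e-04).

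Of the other regulators of Ndrg transcription or stability, 0 of 16 tested passed with edgeR or DESeq2. An unadjusted p under 0.05 was found for 3 of the 16 (against 10.9% of all tested genes with edgeR). Epas1, which encodes the hypoxia-inducible factor HIF-2alpha, was the lowest of the list. It had 57.3, 66.8, 61.7 and 80.4 normalized counts in ctrl 1 to 4 and 51.8, 21.8, 23.2 and 48.9 in TKO 1 to 4. The groups did not overlap, and the log2 difference of −0.86 (SE 0.271) did not pass (adjusted p = 0.201). The lowest Epas1 values, in TKO 2 and TKO 3, were in the 2 TKO libraries with Y-linked counts, and over the 5 libraries without them the difference was −0.40 (adjusted p = 0.670). Mycn, the repressor for which the family is named, was counted at 11.4 to 19.1 in ctrl and 6.77 to 33.8 in TKO, with a log2 difference of 0.48 (SE 0.411, adjusted p = 0.728) that went from 0.10 without TKO 4 to 0.76 without TKO 3. Myc had −0.23 (SE 0.0978, adjusted p = 0.428).

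Kinases that phosphorylate Ndrg1, with their mTORC2 partners, gave 0 calls among 10 tested genes with edgeR and with DESeq2. In each, 3 of the 10 had an unadjusted p under 0.05 (against 10.9% of all tested genes with edgeR and 10.2% with DESeq2). The median log2 fold change of the list was 0.03. Sgk3 was the highest, with 2208 to 2697 normalized counts in ctrl and 2804 to 3006 in TKO. Its groups did not overlap and its log2 difference was 0.19 (SE 0.0617, adjusted p = 0.210). It passed with the presence of Y-linked counts as a term (0.23, adjusted p = 0.0183). Sgk1, the best known Ndrg1 kinase, had −0.18 (SE 0.0730, adjusted p = 0.390) with overlapping groups. Deptor, an mTOR inhibitor, was the lowest at −0.36 (SE 0.276, adjusted p = 0.686), with −0.17 without ctrl 2, −0.59 without TKO 4 and −0.0353 over the libraries without Y-linked counts.

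Hypoxia-responsive genes, a set that Ndrg1 is usually grouped with, gave 0 calls among 18 tested with edgeR and with DESeq2. An unadjusted p under 0.05 was found for 2 with edgeR and 1 with DESeq2 (against 10.9% and 10.2% of all tested genes). The median log2 fold change was −0.04. Aldoc, a glycolytic aldolase, was the lowest at −0.61 (SE 0.273, adjusted p = 0.443), with 22.3, 22.8, 23.5 and 30.7 normalized counts in ctrl and 21.1, 13.6, 11.6 and 18.7 in TKO. Vegfa, the vascular growth factor, was the highest at 0.14 (SE 0.284, adjusted p = 0.900).

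Lactate handling and the RAF-ERK pathway, which Ndrg3 is known to link, gave 0 calls among 16 tested genes with edgeR and 1, Braf, with DESeq2. With edgeR 3 of the 16 had an unadjusted p under 0.05 (against 10.9% of all tested genes). The median log2 fold change was −0.0014. Slc16a3, the lactate exporter MCT4, was the lowest at −0.30 (SE 0.141, adjusted p = 0.466), with 102 to 133 normalized counts in ctrl and 90.9 to 100.7 in TKO and no overlap. Spry2, a feedback inhibitor of ERK signalling, was the highest at 0.54 (SE 0.278, adjusted p = 0.518). Braf, the kinase of this pathway with the smallest p in the list, had 0.24 (SE 0.0617, adjusted p = 0.0951 with edgeR).

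In the PP2A, PI3K and AKT list, which holds PP2A subunits and the AKT pathway, 0 of 16 genes passed with edgeR or DESeq2. In each, 1 had an unadjusted p under 0.05 (against 10.9% and 10.2% of all tested genes). The median was 0.0098. Pik3cb was highest at 0.18 (SE 0.102, adjusted p = 0.556) and Akt1 lowest at −0.15 (SE 0.0642, adjusted p = 0.422). Among 14 tested T cell anergy genes, 0 passed with edgeR or DESeq2. An unadjusted p under 0.05 was found for 1 with edgeR and 2 with DESeq2 (against 10.9% and 10.2% of all tested genes). The median was −0.02. The ubiquitin ligase gene Nedd4 was highest at 0.13 (SE 0.0487, adjusted p = 0.342), with groups that did not overlap, and Egr3 was lowest at −0.14 (SE 0.0744, adjusted p = 0.55).

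**Figure D5:**
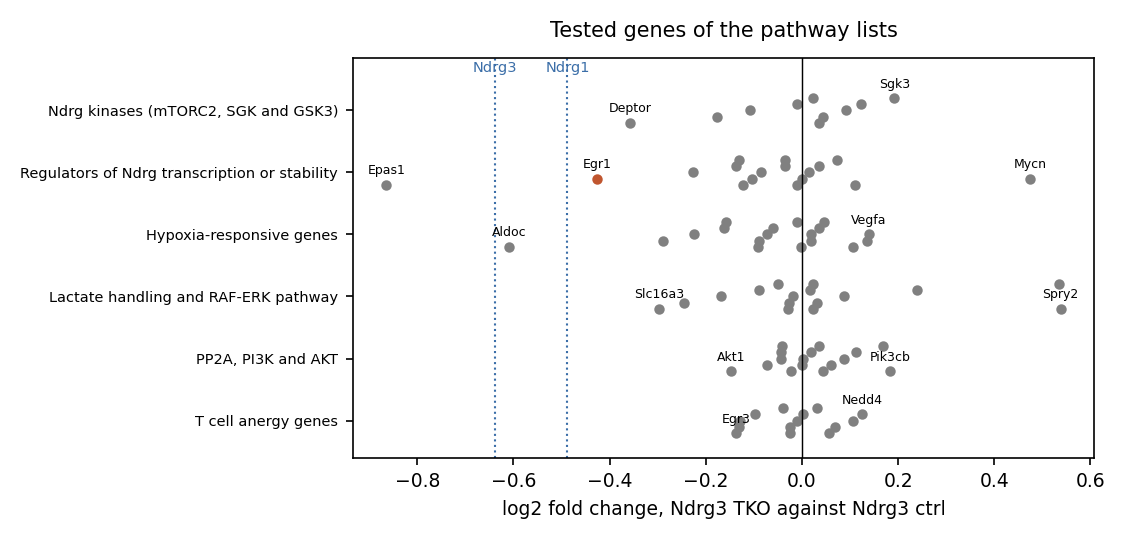
Log2 fold change in Ndrg3 TKO against Ndrg3 ctrl (horizontal axis) of the 89 tested genes in the 6 lists (rows; each point is a gene, spread vertically for legibility, with the highest and lowest named). Egr1 (orange) passed the threshold, the grey points did not, and dotted lines mark Ndrg1 at −0.49 and Ndrg3 at −0.64.

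The way the members varied between mice of the same group was described by correlating log2 CPM, as deviations from the group means, over the 8 libraries. With so few points, and with 3 libraries set apart by Y-linked counts, these values describe the libraries only. Ndrg1 and Ndrg2 had r = 0.70, Ndrg1 and Ndrg4 0.44, Ndrg2 and Ndrg3 0.40, Ndrg2 and Ndrg4 −0.03, Ndrg1 and Ndrg3 −0.34 and Ndrg3 and Ndrg4 −0.59. Ndrg1 and Ndrg3, both lower in TKO, thus did not move together within the groups. Among the 14632 other tested genes, those most like Ndrg1 were Scp2 (r = 0.996), Ly6c2 (0.986) and Cs (0.985). The nearest to Ndrg2 were Tigar (0.989), Rab5c (0.973) and Pitpna (0.972), and those nearest to Ndrg3 were Tab2 (0.985), Parm1 (0.980) and Map3k7 (0.954). For Ndrg4, at its low counts, they were Dapk3 (0.992), Rbms2 (0.986) and Fbxo31 (0.984).

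Markers of cells that the sort could have left were measured because Ndrg2 and Ndrg4 are genes of glia, brain and heart. Of the 5 neuron and glia markers Snap25 was at 0 in every library, and the summed level of the list was 244 to 274 CPM in ctrl and 251 to 279 in TKO, nearly all of it from Mbp, which T cells also transcribe. Epithelium and stroma markers summed to 157 to 180 CPM in ctrl and 149 to 164 in TKO, nearly all from the endothelial and leukocyte gene Pecam1, with Foxn1 at no more than 0.0334 CPM. B cell markers summed to 11.1 to 13.2 CPM in ctrl and 8.45 to 9.43 in TKO, with Ms4a1 at 0. This list was lower in TKO without overlap, as Ndrg1 and Ndrg3 were. It rests on Cd79b, which had a log2 difference of −0.43 (adjusted p = 0.0529 with edgeR, and past the threshold with DESeq2). Markers of the CD4 lineage and of immature thymocytes summed to 17.3 to 26.8 CPM in ctrl and 21.4 to 29.2 in TKO, mostly from Dntt, with Cd4 at no more than 1.48 CPM. Dntt, an enzyme of antigen receptor rearrangement, had a log2 difference of 0.45 (adjusted p = 0.0783 with edgeR, and past the threshold with DESeq2). Erythroid markers reached at most 0.232 CPM, with Hba-a1 and Hbb-bs at 0. Myeloid and dendritic markers summed to at most 5.41 and 1.41 CPM. Natural killer and mast cell markers summed to 37.3 to 47.6 CPM in ctrl and 36.6 to 47.6 in TKO, mostly from Kit, with Ncr1 at 0. In that list Klrb1c rose at low levels, from a mean of 0.305 CPM in ctrl to 1.77 in TKO (log2 fold change 2.62, adjusted p = 0.00149). Its highest library was at 2.04 CPM. The part of the Cd79b, Dntt and Klrb1c differences in the member values was not tested.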

How the data were processed

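Sorted CD8SP thymocytes of 4 Ndrg3 ctrl and 4 Ndrg3 TKO mice were profiled by bulk RNA sequencing, 1 library per mouse. Trimming with cutadapt, alignment with STAR to GRCm38.p4 (GENCODE M9) and gene-level counting with featureCounts were done by the authors within the snakePipes mRNA-seq pipeline, who deposited raw counts. The versions of these 3 tools, the strand setting and treatment of multi-mapping reads are not given in the sources used here. The authors compared the groups with DESeq2.

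Groups and replicate numbers were taken from the sample labels, and all 8 columns were used. Of 47937 genes, 47224 were matched to GENCODE M21 by Ensembl identifier, which gave symbols, lengths and sequences. Counts were fitted with edgeR 4.0.16 in R 4.3.3 (filterByExpr, TMM, robust quasi-likelihood test on group), and p-values were adjusted by Benjamini-Hochberg over 14633 genes, with a threshold of 0.05. For normalized counts, each count was divided by the effective (TMM) library size of the tested genes and multiplied by the mean total count. RPKM used the same library sizes and merged exon length. Family sums, shares and the ratio were compared by two-sided exact permutation tests over 70 group assignments, adjusted over 7 values. Fits were tested on simulated counts.

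Alternatives were RLE and upper quartile scaling, other filters, a replicate block, a term for Y-linked counts, leaving out each library, DESeq2 1.42.0, and other lengths for the shares. Replicates of a group differed by more than sampling noise. Named were the members, their 3 nearest tested genes on each side (single values for the nearest protein-coding gene on each side and any whose groups did not overlap), in each list any gene past the threshold with the highest and the lowest, and the 3 genes most correlated with each member. Myc, Sgk1, Braf, Spry1 and the named cell type markers were added after their values were seen. Some list genes were left out and are not reported here. The members and lists were chosen with earlier results of these data known.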

Additional observations from a re-analysis of the deposited data

Results flagged for a closer look

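In 68 groups of 4 libraries, 1 for each named gene, family value and group, the library at either end was compared with its nearest neighbour relative to the whole range of the group. In 3 groups the gap was above the 95% critical value of Dixon's test, where chance gives about 1 in 20, or 3.4. None of the 3 concerns a member of the family. Ndrg3 ctrl 4 was the highest ctrl library for Aldoc, at 30.7 normalized counts, and the lowest for Egr3, at 1024. Ndrg3 ctrl 1 was the lowest ctrl library for Sla, at 5191.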

How the results depend on the processing

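The falls of Ndrg1 and Ndrg3 kept their direction and their side of the threshold in all 16 alternatives, with log2 fold changes of −0.54 to −0.44 for Ndrg1 (adjusted p 2.96e-07 to 0.0118) and −0.67 to −0.60 for Ndrg3 (7.87e-24 to 3.58e-04). Ndrg2 and Ndrg4 passed the threshold in none, Ndrg4 having been fitted in 15. The sign of Ndrg2 was not fixed, with −0.0048 when Y-linked counts were a term and −0.0085 to 0.0348 when 1 library was left out, where Ndrg4 had −0.70 to −0.23. The Ndrg1 share of family RNA differed by 0.171 percentage points with coding length and by 0.254 with no length correction, the other direction from merged exons, and the Ndrg4 share by 0.00086 and 0.00145 (−0.0733 to 0.0625 when 1 library was left out). With no length correction the Ndrg3 share missed the exact permutation test (p = 0.0571, adjusted p = 0.1). The Ndrg2 share, the family sum and the sum without Ndrg3 then had an exact permutation p of 0.0286 and an adjusted p of 0.0667. Replicate numbers were not taken as pairs in the main fit, because same-numbered correlations (0.18, 0.42, −0.06 and 0.30) were not all above 0.1. Differently numbered samples had −0.33 to 0.16. Whether same-numbered samples belong together was not settled. With the replicate block, Ndrg1 had −0.49 (adjusted p = 2.53e-06) and Ndrg3 −0.64 (adjusted p = 1.02e-07). List genes past the threshold and lower were Egr1 (−0.43, adjusted p = 2.89e-05), Myc (−0.22, 0.0101), Epas1 (−0.90, 0.0288) and Sgk1 (−0.18, 0.0381). Those past it and higher were Braf (0.24, adjusted p = 0.00196), Sgk3 (0.20, 0.0169) and Spry1 (0.54, 0.0331). Family values cannot go below p = 0.125 by exact sign flips. Genes past the threshold numbered 274 with no filter, 800 with the block, 437 with the Y-linked term, 92 over libraries without Y-linked counts (chosen after seeing the data), 309 with DESeq2 and 90 to 158 when 1 library was left out, against 168. Pathway genes past it numbered 2, 7, 4, 0, 2 and 0 to 1 in the same order, against 1, with 0 when ctrl 1, ctrl 2, ctrl 3, TKO 3 or TKO 4 was left out; the cause was not tested. Neighbours past it numbered 0 in every alternative, and near-zero signs turned for Sla2 (0.0052 with upper quartile scaling, −0.0229 to 0.0198 when 1 library was left out), Gins3 (−0.0035 with the block, −0.0464 to 0.0513), Dsn1 (−0.0522 to 0.12), Tg (−0.0392 to 0.78) and, among list genes, Vegfa (−0.0201 to 0.30). Depth limits Ndrg4, at 5 to 22 counts a library.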
